A study of Mus musculus with 12 samples.

Results

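The circadian clock genes Arntl, Clock, Npas2, Per1, Per2, Per3, Cry1, Nr1d1, Nr1d2 and Dbp were taken by symbol from the gene counts of 12 mouse heart libraries, and all 10 were found among the 24061 listed symbols. The titles label 6 of them as HKII+/- and 6 as HKII+/+ heart samples, which are also called hearts below. HKII+/- hearts are heterozygous for hexokinase II, the enzyme encoded by Hk2 that phosphorylates glucose at the start of glycolysis, and HKII+/+ hearts are wild type. All mice were C57BL/6J males between 2 and 4 months old, kept on chow, and poly(A) RNA of the heart was sequenced. The labels give each library its own title but do not say that the libraries are separate animals, so p-values measure the spread between these samples. A note in the submitters' descriptions flags replicate 11 of HKII+/- and replicate 13 of HKII+/+ as possible outliers. These are called the marked libraries, and genotype results are given with and without them. The hour at which the hearts were taken is not given in the sources used here, and its part in the values was not tested.

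In mammalian cells the clock is a loop of transcription factors. BMAL1, encoded by Arntl, pairs with CLOCK or NPAS2 and switches on the Per, Cry, Nr1d and Dbp genes, and the PER and CRY proteins then block that pair. The NR1D1 and NR1D2 proteins, also called REV-ERBs, repress Arntl, so that Arntl and Npas2 RNA peak at the opposite time of day from Dbp, Nr1d1 and the Per genes. The heart has such a clock of its own, which times the use of metabolic fuels and the expression of ion channels.

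The DNA at which these factors are known to act can be read in the members' promoters. RefSeq sequences for GRCm38.p6, from 250 bases before to 50 bases after a transcription start, were found for 9 of the 10 members (all but Per2), with 13 annotated starts in all. They were searched on both strands for the E-box CACGTG and its variant CACGTT, which the BMAL1 pairs bind, for TTATGTAA, the D-box bound by DBP and TEF, and for TAGGTNA, the core of the element bound by REV-ERB and ROR receptors. The last spelling was chosen after the Arntl sequence had been seen. The promoters below are shown because the members' strongest relations across libraries, given further on, involve Arntl, Per3, Cry1 and Nr1d1, and because Per1 varied most, and capitals mark the matches.
Arntl, chr7:113207261-113207560, plus strand: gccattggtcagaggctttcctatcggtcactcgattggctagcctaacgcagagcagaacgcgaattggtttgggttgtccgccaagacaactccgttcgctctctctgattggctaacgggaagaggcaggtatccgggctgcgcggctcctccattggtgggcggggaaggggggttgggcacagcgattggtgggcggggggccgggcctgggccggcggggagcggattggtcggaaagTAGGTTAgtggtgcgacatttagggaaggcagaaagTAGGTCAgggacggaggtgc
Per3, chr4:151044616-151044915, minus strand: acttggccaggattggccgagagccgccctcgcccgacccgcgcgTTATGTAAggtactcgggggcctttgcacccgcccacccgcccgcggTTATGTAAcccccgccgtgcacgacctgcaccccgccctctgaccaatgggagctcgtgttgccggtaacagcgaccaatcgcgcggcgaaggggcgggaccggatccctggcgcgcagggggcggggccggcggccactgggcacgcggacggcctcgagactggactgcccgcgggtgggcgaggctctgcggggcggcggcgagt
Cry1, chr10:85185005-85185304, minus strand: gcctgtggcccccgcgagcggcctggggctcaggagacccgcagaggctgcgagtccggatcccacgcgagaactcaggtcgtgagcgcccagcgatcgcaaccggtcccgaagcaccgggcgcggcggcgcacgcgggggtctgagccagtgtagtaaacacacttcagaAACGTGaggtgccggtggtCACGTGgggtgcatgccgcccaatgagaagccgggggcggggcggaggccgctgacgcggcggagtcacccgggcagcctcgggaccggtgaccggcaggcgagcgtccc
Per1, chr11:69098699-69098998, plus strand: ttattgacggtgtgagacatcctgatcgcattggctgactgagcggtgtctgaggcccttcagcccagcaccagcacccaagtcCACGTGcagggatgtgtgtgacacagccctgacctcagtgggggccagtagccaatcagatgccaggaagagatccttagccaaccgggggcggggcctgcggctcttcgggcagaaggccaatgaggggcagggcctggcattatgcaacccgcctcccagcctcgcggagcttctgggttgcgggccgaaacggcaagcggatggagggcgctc
Nr1d1, chr11:98775328-98775627, minus strand: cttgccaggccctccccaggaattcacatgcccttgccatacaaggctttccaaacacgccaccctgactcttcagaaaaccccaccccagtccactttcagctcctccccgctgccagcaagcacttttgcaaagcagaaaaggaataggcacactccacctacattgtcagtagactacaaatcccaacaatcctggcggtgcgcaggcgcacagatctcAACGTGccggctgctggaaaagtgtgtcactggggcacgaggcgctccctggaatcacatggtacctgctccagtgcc

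In the Arntl promoter TAGGTNA stood at -6 and 30, counting the start site as 0, and the other annotated Arntl start, which overlaps this window, held the upstream copy. The Per3 promoter held TTATGTAA at -205 and -158. The Cry1 promoter held CACGTG at -60 and CACGTT at -79, which reads AACGTG on the strand shown. Per1 had CACGTG at -166 of this start and none of these letters at its other start, and Nr1d1 had CACGTT at -28. Of 32851 promoters of the same length, 7.15% held CACGTG, 4.68% held CACGTT, 8.29% held TAGGTNA and 0.938% held TTATGTAA. The windows of Clock, Npas2, Nr1d2 and Dbp held none of these letters, which says nothing of elements outside them.

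Counts summed to 17263209 (HKII+/+ replicate 18) to 51556592 (HKII+/- replicate 22) per library, and 14107 genes, all 10 members among them, passed the filter on low counts. Values are CPM, counts scaled to a common library size, with the library total adjusted by TMM, a scaling that evens out the composition of libraries. The TMM factor was 0.787 in the library labelled HKII+/- replicate 11 and 0.760 in HKII+/+ replicate 13, against 0.992 to 1.09 in the others. Hk2 measured 272, 267, 312, 256 and 354 CPM in the unmarked HKII+/- hearts, against 471, 542, 522, 524 and 485 CPM in the unmarked HKII+/+ hearts. The library labelled HKII+/- replicate 11 held 568 CPM, above every unmarked HKII+/+ library and against its label. HKII+/+ replicate 13 held 652 CPM. Summed markers of heart muscle cells came to 179082 CPM in that HKII+/- library and 200993 CPM in HKII+/+ replicate 13, against 61454 to 86257 CPM in the unmarked libraries. The same HKII+/- library also held 261 CPM of airway and lung epithelium markers, against at most 1.76 CPM in any unmarked library.

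Relative to exon length, the repressor Nr1d1 was the most abundant member and Arntl the least. Over the 10 unmarked libraries the median level was 51.3 CPM per kilobase of exon for Nr1d1, 27.9 for Dbp, 27.7 for Nr1d2 and 27.5 for Per1. It was 9.30 for Per2, 6.91 for Per3, 4.07 for Cry1, 4.05 for Clock, 0.888 for Npas2 and 0.807 for Arntl. Neighbours in this order overlapped in their ranges over libraries except at 3 places. The lowest Nr1d1 level, 33.6 CPM per kilobase, lay above the highest of Dbp, 31.4. The lowest Per3 level, 5.54, lay above the highest of Cry1, 5.03, and the lowest Clock level, 3.08, above the highest of Npas2, 1.11. The 2 genes at the bottom rested on few reads, 86 to 484 per library for Arntl and 19 to 221 for Npas2, so their values carry more counting error than those of the other members.

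**Figure D1:**
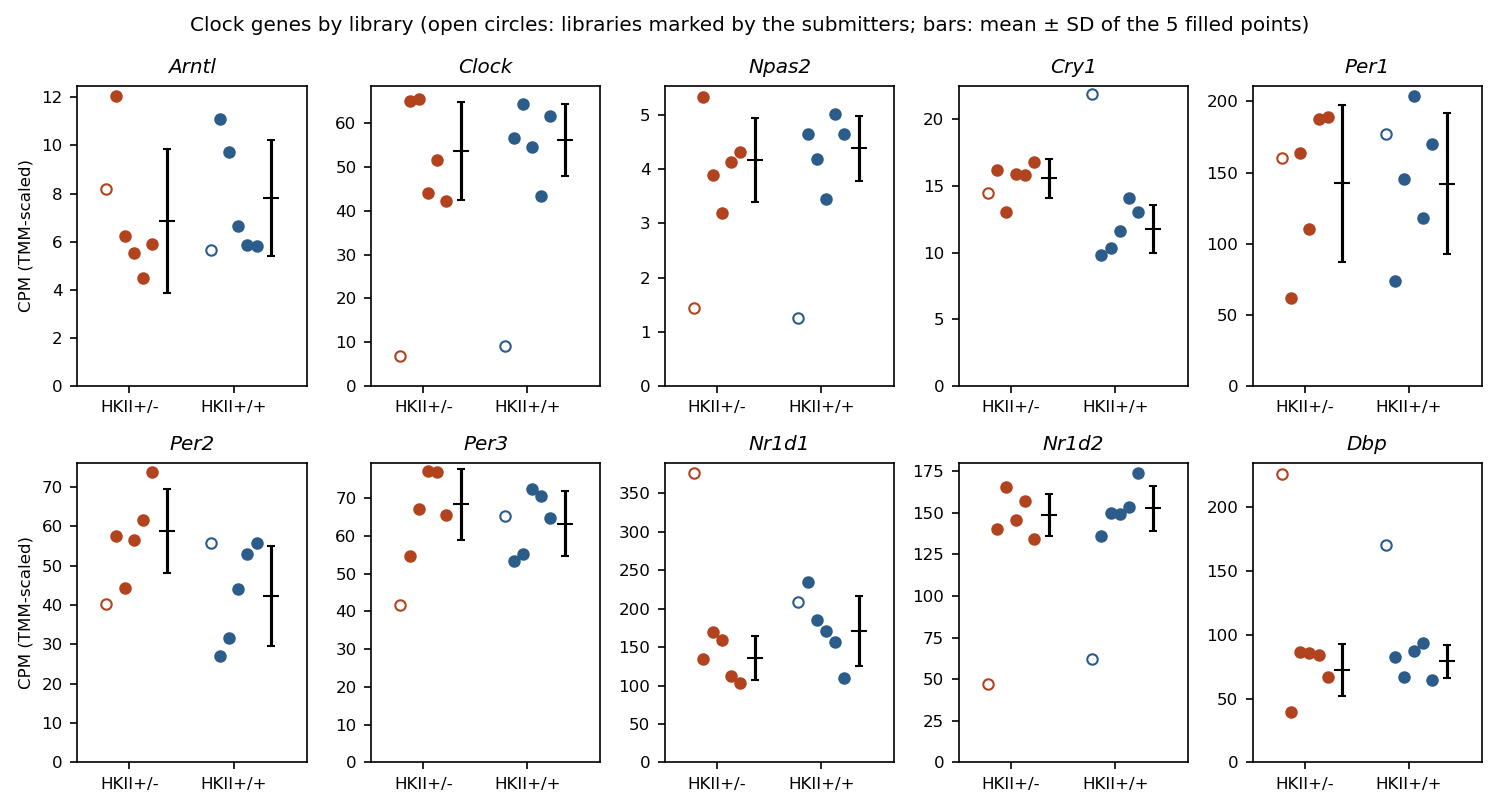
TMM-scaled CPM of the 10 clock genes in each library, on linear axes from 0, with HKII+/- libraries at the left and HKII+/+ libraries at the right of each panel. Open circles are the 2 marked libraries, and bars give the mean and SD of the 5 unmarked libraries of a genotype. The open circles of Clock, Npas2 and Nr1d2 lie below, and those of Dbp above, all filled points.

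Values of unmarked libraries follow in the order of replicates 12, 16, 19, 20 and 22 for HKII+/- and 14, 15, 17, 18 and 21 for HKII+/+. Arntl (ENSMUSG00000055116.8), which encodes the obligate partner of the activating pair, spans 113207465 to 113314126 on chromosome 7 (GRCm38, plus strand). It measured 12.1, 6.25, 5.52, 4.49 and 5.90 CPM in HKII+/- hearts, against 11.1, 9.72, 6.65, 5.85 and 5.83 CPM in HKII+/+ hearts. The values fell in 2 ranges that cut across genotype: HKII+/- replicate 12 and HKII+/+ replicates 14 and 15 had at least 9.72 CPM, and the other 7 had at most 6.65 CPM. These 3 have the lowest replicate numbers of the 10, and the other 7 are replicates 16 to 22. Their counts summed to 36696196, 35673165 and 35570502. The other 7 had 17263209 to 28197364, except HKII+/- replicate 22 with 51556592. The part of replicate order and of depth in this split was not tested. The same 3 libraries were the highest of the 10 in summed fat markers, with 207 CPM in HKII+/- replicate 12 and 291 and 154 CPM in HKII+/+ replicates 14 and 15, against 28.4 to 139 CPM in the other 7. They were also the highest in summed smooth muscle markers, with 563 CPM in HKII+/- replicate 12 and 737 and 606 CPM in HKII+/+ replicates 14 and 15, against 261 to 558 CPM in the other 7. All 5 genes of each list were detected, and the part of other tissues in these values was not tested. The marked libraries held 8.20 CPM (the library labelled HKII+/- replicate 11) and 5.64 CPM (HKII+/+ replicate 13). Because hearts were sampled in bulk, fewer cells of a type and less RNA per cell cannot be told apart for this or any other member.

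Npas2 and Clock encode the alternative partners of BMAL1. Npas2 (ENSMUSG00000026077.15, chromosome 1, 39193731 to 39363236, plus strand) measured 5.33, 3.89, 3.20, 4.13 and 4.32 CPM in HKII+/- hearts, against 4.65, 4.19, 3.44, 5.02 and 4.64 CPM in HKII+/+ hearts. Its highest value fell in HKII+/- replicate 12, which also had the highest Arntl, but the HKII+/+ libraries with high Arntl did not stand out. Clock (ENSMUSG00000029238.11, chromosome 5, 76209868 to 76304792, minus strand) measured 65.0, 65.6, 44.0, 51.6 and 42.3 CPM in HKII+/- hearts, against 56.7, 64.5, 54.6, 43.3 and 61.7 CPM in HKII+/+ hearts. The genotypes overlapped in both genes, and each library with high Arntl had at least 56.7 CPM of Clock.

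The Per genes encode the PERIOD proteins, which repress the activating pair together with the cryptochromes. Per1 (ENSMUSG00000020893.17, chromosome 11, 69095217 to 69109960, plus strand) measured 61.8, 164, 110, 188 and 189 CPM in HKII+/- hearts, against 73.8, 145, 204, 118 and 170 CPM in HKII+/+ hearts. It was lowest in HKII+/- replicate 12 and HKII+/+ replicate 14, the libraries with the highest Arntl in each genotype. Per2 (ENSMUSG00000055866.9, chromosome 1, 91415982 to 91459324, minus strand) measured 57.7, 44.2, 56.5, 61.7 and 73.9 CPM in HKII+/- hearts, against 26.9, 31.5, 44.0, 53.0 and 55.9 CPM in HKII+/+ hearts. Here HKII+/+ replicates 14 and 15 were low but HKII+/- replicate 12 was not, so the hearts with high Arntl did not share 1 Per2 level. Per3 (ENSMUSG00000028957.12, chromosome 4, 151003652 to 151044665, minus strand) measured 54.8, 67.2, 77.2, 77.0 and 65.6 CPM in HKII+/- hearts, against 53.3, 55.3, 72.4, 70.5 and 64.8 CPM in HKII+/+ hearts. Its 3 lowest values were those of the 3 libraries with high Arntl.

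Cry1 (ENSMUSG00000020038.10, chromosome 10, 85131700 to 85185064, minus strand) encodes a cryptochrome, the strongest repressor of the activating pair. It measured 16.2, 13.1, 15.9, 15.8 and 16.8 CPM in HKII+/- hearts, against 9.79, 10.4, 11.6, 14.1 and 13.1 CPM in HKII+/+ hearts. In 4 of the 5 unmarked HKII+/- libraries it was above every unmarked HKII+/+ library, as was Per2. The marked libraries departed from this, with 14.5 CPM in the library labelled HKII+/- replicate 11 and 21.9 CPM in HKII+/+ replicate 13.

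Nr1d1 (ENSMUSG00000020889.11, chromosome 11, 98767932 to 98775333, minus strand) encodes REV-ERB alpha. It measured 134, 170, 160, 112 and 103 CPM in HKII+/- hearts, against 235, 185, 171, 156 and 110 CPM in HKII+/+ hearts. The highest unmarked values were those of HKII+/+ replicates 14 and 15, the libraries with the lowest Per2. The marked libraries held 377 CPM (the library labelled HKII+/- replicate 11) and 209 CPM (HKII+/+ replicate 13). Nr1d1 shares 263 exon bases with Thra, on the opposite strand, and the strand setting of the counting is not given in the sources used here, so reads of the shared stretch cannot be assigned with certainty.

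Nr1d2 (ENSMUSG00000021775.11, chromosome 14, 18204054 to 18239127, minus strand), which encodes REV-ERB beta, varied least. It measured 140, 165, 146, 157 and 134 CPM in HKII+/- hearts, against 136, 150, 150, 154 and 174 CPM in HKII+/+ hearts. Dbp (ENSMUSG00000059824.12, chromosome 7, 45705088 to 45710203, plus strand) encodes a D-box activator whose RNA follows the BMAL1 pairs closely. It measured 39.3, 86.8, 86.1, 84.1 and 66.8 CPM in HKII+/- hearts, against 83.0, 66.7, 87.7, 94.0 and 64.7 CPM in HKII+/+ hearts. HKII+/- replicate 12 was the lowest by a wide margin, and the other 9 lay between 64.7 and 94.0 CPM. Dbp shares 539 exon bases with Sphk2 on the opposite strand, with the same uncertainty.

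Most of the members varied more between libraries than genes of like level. Each member's SD of log2 CPM over the 10 unmarked libraries was ranked among genes whose mean log2 CPM lay within 0.5 of its own, as a description. Per1 stood at percentile 99.7, with a highest value 3.29-fold its lowest, and Per2 at percentile 98.6 with 2.74-fold. Nr1d1 stood at percentile 98.3, Dbp at 97.8, Arntl at 95.8, Clock at 95.2, Per3 at 91.9 and Cry1 at 91.5. Nr1d2 at percentile 68.8 and Npas2 at percentile 59.2 were nearer the middle, and Nr1d2 spanned only 1.29-fold.

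**Figure D2:**
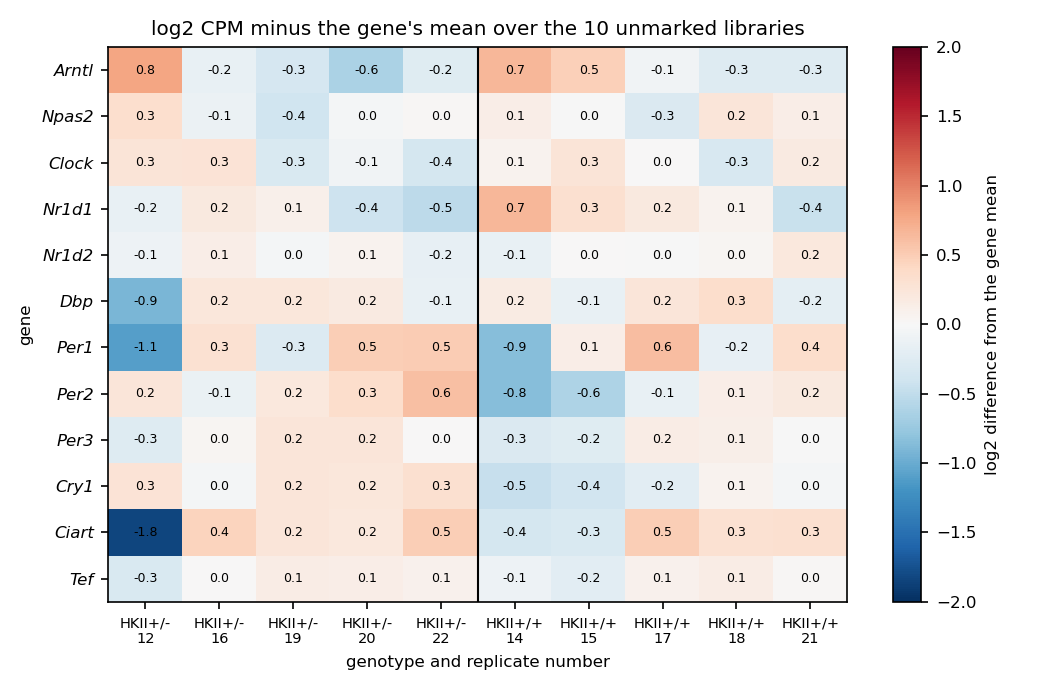
Each cell gives the log2 CPM of a gene in 1 unmarked library minus that gene's mean over the 10 unmarked libraries, with HKII+/- libraries left and HKII+/+ libraries right of the line, and with Ciart and Tef below the members. Red cells are above and blue cells below the mean. HKII+/- replicate 12 is red for Arntl and blue for Dbp, Per1, Per3 and Ciart, and HKII+/+ replicates 14 and 15 are red for Arntl and Nr1d1 and blue for Per2 and Cry1.

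HKII+/- was then compared with HKII+/+ for each member, to ask whether a lower dose of Hk2 goes with altered clock gene levels. In edgeR's quasi-likelihood test over all 12 libraries, 0 of the 10 members passed a Benjamini-Hochberg adjusted p of 0.05, and 0.0% of the 14107 tested genes did. None of the 10 members had an unadjusted p below 0.05, a level that 0.262% of all genes (37) passed. DESeq2 also called 0 members, against 0.0% of 13305 genes (0.481%, or 64, at an unadjusted p below 0.05). Limma voom with quality weights called 0 members, against 0.0142% of genes (2 genes, and 4.76% or 671 at an unadjusted p below 0.05). The genotypes overlapped in the CPM of every member, and did not overlap for 0.0213% of all genes (3). The log2 fold changes ran from -0.08 for Arntl (SE 0.26, 95% interval -0.65 to 0.49) to 0.32 for Per2 (SE 0.21, 95% interval -0.14 to 0.79). Their median was -0.02, against -0.0013 over all tested genes. The interval of Clock, -1.16 to 1.01, was the widest, and it measured 6.80 CPM in the library labelled HKII+/- replicate 11 and 9.05 CPM in HKII+/+ replicate 13.

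Without the marked libraries the differences of Cry1 and Per2 were larger and no member passed. Of 14139 genes, 0.00707% (1 gene) passed in edgeR, and none of the members did. DESeq2 without these libraries likewise called 0 members, against 0.0212% of genes (3), with 2.48% (351) at an unadjusted p below 0.05. Cry1 had a mean of 15.6 ± 1.45 CPM in unmarked HKII+/- libraries, against 11.8 ± 1.81 CPM in unmarked HKII+/+ libraries (± SD, n = 5 each). On the log2 scale the fitted difference was 0.41 (SE 0.11) with a 95% interval of 0.17 to 0.65. It had an unadjusted edgeR p of 0.0027, an adjusted edgeR p of 0.9999 and an exact two-sided permutation p of 0.0238. Per2 had a mean of 58.8 ± 10.7 CPM in unmarked HKII+/- libraries, against 42.3 ± 12.8 CPM in unmarked HKII+/+ libraries (± SD, n = 5 each). On the log2 scale the fitted difference was 0.49 (SE 0.20) with a 95% interval of 0.05 to 0.92. It had an unadjusted edgeR p of 0.0312, an adjusted edgeR p of 0.9999 and an exact two-sided permutation p of 0.0476. An unadjusted edgeR p below 0.05 was thus found for 2 of the 10 members, against 2.8% of all genes (396). Cry1 and Per2 moved together over these libraries (r = 0.94), so they do not count as 2 separate observations. The exact permutation p was below 0.05 for the same 2 members, against 2.88% of all genes (406), and over all 12 libraries for 0 members, against 0.652% of all genes (92). Over all 12 libraries the exact permutation p was 0.206 for Cry1 and 0.136 for Per2, and HKII+/+ replicate 13, at 21.9 CPM, was the highest library in Cry1. Summed atrial markers, all 5 detected, were 316 and 432 CPM in HKII+/- replicates 19 and 22, against 2360 to 6832 CPM in the other 8 unmarked libraries. Replicate 22 was the highest unmarked library in both Cry1 and Per2, and the part of atrial tissue in these differences was not tested.

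The other 8 members had unadjusted edgeR p-values of 0.0973 or more without the marked libraries. The largest of their differences was that of Nr1d1, which had a mean of 136 ± 28.9 CPM in unmarked HKII+/- libraries, against 172 ± 45.5 CPM in unmarked HKII+/+ libraries (± SD, n = 5 each). The fitted log2 difference was -0.34 (SE 0.19), with an interval of -0.75 to 0.07. Over all 12 libraries Nr1d1 had a mean of 176 ± 102 CPM in HKII+/- libraries, against 178 ± 43.4 CPM in HKII+/+ libraries (± SD, n = 6 each), and a log2 difference of -0.015. Nr1d2 had the narrowest interval, -0.20 to 0.13 around -0.04. Arntl had an interval of -0.78 to 0.40 and Per1 one of -0.68 to 0.68, so these data bound their genotype difference only loosely. The log2 fold changes without and with the marked libraries were -0.06 and -0.07 for Clock, -0.05 and -0.06 for Npas2, 0.11 and 0.0074 for Per3, -0.13 and 0.06 for Dbp, -0.04 and -0.06 for Nr1d2 and 0.0010 and -0.03 for Per1. Hk2 itself had a log2 fold change of -0.80 in this comparison with an adjusted p of 0.0165 in edgeR's quasi-likelihood test. Over all 12 libraries it was -0.66 with an adjusted edgeR p of 1.0.

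**Figure D3:**
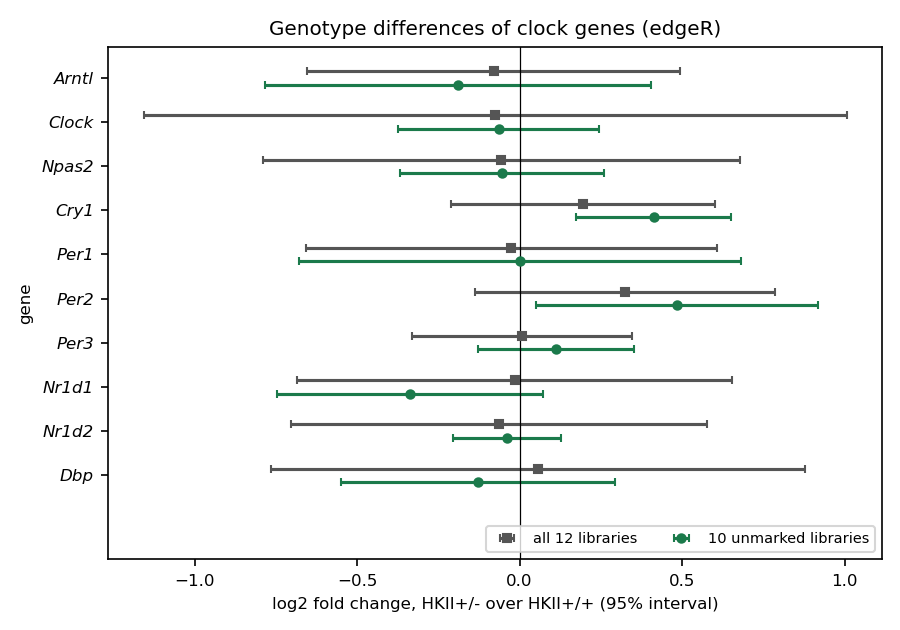
Log2 fold change of HKII+/- over HKII+/+ for each clock gene by edgeR, with its 95% interval, over all 12 libraries (grey squares) and over the 10 unmarked libraries (green circles). The green intervals of Cry1 (0.17 to 0.65) and Per2 (0.05 to 0.92) lie above 0, and all grey intervals cross 0.

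The balance of opposed phases was read in each library as the mean log2 CPM of Arntl and Npas2 minus that of Dbp, Per1, Per2, Per3 and Nr1d1. It was -2.97, -4.23, -4.43, -4.47 and -4.16 in the unmarked HKII+/- libraries, against -3.33, -3.62, -4.36, -4.06 and -4.01 in the unmarked HKII+/+ libraries. HKII+/- replicate 12 stood highest, HKII+/+ replicates 14 and 15 followed, and the other 7 lay between -4.47 and -4.01. The genotypes overlapped, and the mean was -4.05 ± 0.62 in unmarked HKII+/- libraries, against -3.88 ± 0.40 in unmarked HKII+/+ libraries (± SD, n = 5 each), a difference of -0.17. Including the marked libraries, at -5.06 for the library labelled HKII+/- replicate 11 and -5.43 for HKII+/+ replicate 13, the mean was -4.22 ± 0.69 for HKII+/-, against -4.14 ± 0.73 for HKII+/+ (± SD, n = 6 each), a difference of -0.08. No test was made of this score, since its genes were chosen with results of these data known. Its members did not follow 1 axis: over the 10 unmarked libraries r was -0.90 for Per2 with Nr1d1 and 0.54 for Arntl with Nr1d1. With Clock and Cry1 added to the first side and Nr1d2 to the second, the genotype difference was -0.0045 in unmarked libraries. It was -0.0035 over all 12. Arntl minus Dbp differed by -0.06 in unmarked libraries and by -0.03 over all 12.

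The 3 libraries with high Arntl did not share 1 pattern in the remaining members. HKII+/- replicate 12 combined high Arntl with the lowest Dbp (39.3 CPM) and Per1 (61.8 CPM) of the 10, while its Cry1 (16.2 CPM) and Per2 (57.7 CPM) were among the higher values. HKII+/+ replicates 14 and 15 had the lowest Per2 and Cry1 of the 10 and the highest Nr1d1, and their Dbp, 83.0 and 66.7 CPM, lay within the range of the other 7. Ciart, a repressor of the BMAL1 pair chosen here after its values were seen, measured 4.76 CPM in HKII+/- replicate 12, against 13.5 and 13.9 CPM in HKII+/+ replicates 14 and 15 and 20.1 to 24.3 CPM in the other 7. These 3 libraries were thus the lowest of the 10 in Per3, in Ciart and in the D-box activator Tef. Tef is named because it was among the 5 genes with the lowest r with Arntl over the same libraries. Its low values in the libraries with high Arntl are therefore no separate observation. Tef measured 196 CPM in HKII+/- replicate 12 and 227 and 209 CPM in HKII+/+ replicates 14 and 15, against 243 to 268 CPM in the other 7.

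Relations between members were computed for all 45 pairs, with p-values from 100000 permutations adjusted over the 45 pairs. Over the 10 unmarked libraries 3 pairs passed by Pearson's r and 2 of them also by Spearman's rho. The p-values are set against no correlation. The share of other gene pairs with r of this size is not given here, so the counts do not set the members apart from other genes. Per2 and Cry1 moved together, with r = 0.94 (permutation p = 4e-05, adjusted p = 0.0018) and rho = 0.95 (permutation p = 0.00013, adjusted p = 0.00585). Without the 2 libraries farthest from the median of Per2, r was 0.85, and with the genotype means taken out of both genes it was 0.94. Per2 and Nr1d1 ran in opposite directions, with r = -0.90 (permutation p = 0.00022, adjusted p = 0.00495) and rho = -0.90 (permutation p = 0.0009, adjusted p = 0.0203). Here r was -0.84 without the 2 farthest libraries and -0.88 with the genotype means taken out. Leaving out any single unmarked library, r stayed between 0.92 and 0.97 for Per2 and Cry1 and between -0.93 and -0.83 for Per2 and Nr1d1. With 5 unmarked libraries a genotype, r within a genotype was not computed.

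Arntl and Per3 were the remaining pair, with r = -0.92 (permutation p = 0.00086, adjusted p = 0.0129). It did not pass by rho (-0.77, permutation p = 0.0127, adjusted p = 0.143). Its r was -0.84 without the 2 libraries farthest from the median of Arntl, -0.91 with the genotype means taken out and between -0.94 and -0.89 leaving out any single unmarked library. In Arntl 3 libraries lay apart from the other 7, so the points of this pair are not evenly spread. Over all 12 libraries 11 pairs passed by r, 5 positive and 6 negative, and 0 passed by rho. Of the 3 pairs above, Per2 with Cry1 (r = 0.79, adjusted permutation p = 0.0223) and Arntl with Per3 (r = -0.74, adjusted permutation p = 0.0406) were among these 11. Per2 with Nr1d1 was not (r = -0.67, adjusted permutation p = 0.059). The 2 marked libraries stand apart in several members, and these r include them.

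**Figure D4:**
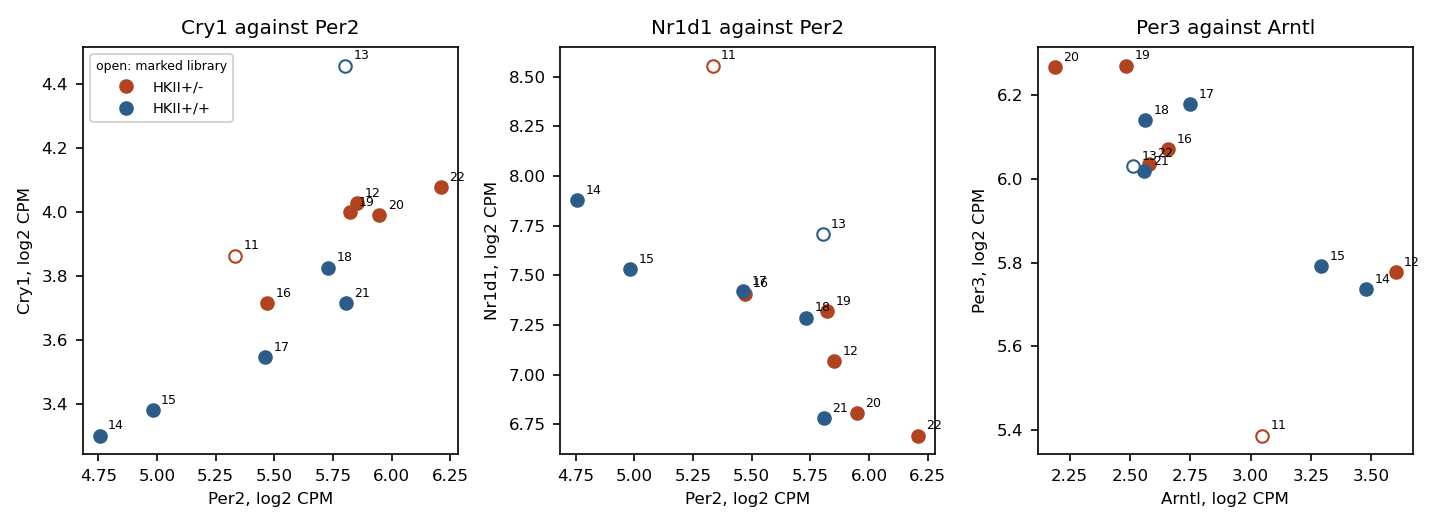
Log2 CPM of the 3 pairs of clock genes that passed by Pearson's r, 1 point per library with its replicate number, HKII+/- in red and HKII+/+ in blue, marked libraries open. Cry1 rises and Nr1d1 falls along the Per2 axis in both genotypes, and in the panel of Per3 against Arntl the unmarked libraries form a group of 7 at the upper left and a group of 3 at the lower right.

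Genes whose pattern was most like that of Arntl were sought among 13016 genes by Pearson's r of log2 CPM over the 10 unmarked libraries, as a description with no p. The highest r belonged to Usp6nl (0.90), Acly (0.89), Telo2 (0.89), Prkcd (0.88) and Mlec (0.88). Over all 12 libraries their r was 0.08, 0.71, 0.11, 0.41 and 0.13 in the same order. The lowest r belonged to Zfp612 (-0.96), Per3 (-0.92), 2610306M01Rik (-0.92), Rbmx (-0.90) and Tef (-0.90). Over all 12 libraries their r was -0.42, -0.74, -0.39, -0.43 and -0.88 in the same order. Of the 5 genes most opposed to Arntl over the 10 unmarked libraries, 2 (Per3 and Tef) were clock genes. Cry2, the second cryptochrome, stood in place 33 from the low end and Ciart in place 74, both named after their values were seen, and Per1 stood in place 190. The r of Per1 with Arntl was -0.74, but -0.09 without the 2 libraries farthest from the median of Arntl. Its rho was -0.39, and the pair did not pass over the 10 unmarked libraries. The r of Nr1d1 with Arntl was positive, 0.54, at place 883 from the high end.

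For Dbp the highest r belonged to Iffo1, Rffl, Efcab4a, Mamstr and Rab4b (0.91 to 0.92). Without HKII+/- replicate 12 their r ran from 0.62 (Rab4b) to 0.83 (Iffo1). Over all 12 libraries it was 0.97 for Iffo1 and Rab4b, 0.91 for Efcab4a, 0.45 for Mamstr and -0.03 for Rffl. The lowest r belonged to Snx16 (-0.97), Hsph1 (-0.93), Hspa4l (-0.93), Smcr8 (-0.92) and Xpo1 (-0.92). Without HKII+/- replicate 12 their r ran from -0.90 (Snx16) to -0.64 (Xpo1). Over all 12 libraries it was -0.98 for Hspa4l, -0.94 for Snx16 and Smcr8, -0.92 for Xpo1 and -0.12 for Hsph1. None of the 10 genes with the highest or lowest r is on the clock lists. Ciart, a known target of the same E-box control, stood in place 86 from the high end and was named after its values were seen. Its r was 0.81, and -0.36 over all 12 libraries. HKII+/- replicate 12 was the lowest of the 10 unmarked libraries in both genes, with 4.76 CPM of Ciart and 39.3 CPM of Dbp. The next lowest values were 13.5 CPM of Ciart and 64.7 CPM of Dbp, so the r of 0.81 leans on that library. For Ciart and for the members, r without it was not computed. Among the members, r with Dbp over the 10 unmarked libraries was 0.60 for Per3, 0.45 for Per1, 0.34 for Nr1d1 and 0.24 for Nr1d2. It was -0.21 for Per2, -0.26 for Cry1, -0.44 for Clock, -0.54 for Npas2 and -0.58 for Arntl. None of these pairs passed. Without the 2 libraries farthest from each of these members' own median, r with Dbp was 0.71 for Per3, -0.30 for Per1, 0.29 for Nr1d1 and 0.44 for Nr1d2. For Per2 it was then -0.36, for Cry1 -0.40, for Clock -0.53, for Npas2 -0.14 and for Arntl -0.38, so the r of Per1 turned direction.

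Further genes of the pathway were read from a list of 20: the second cryptochrome, the ROR receptors, the DEC repressors, PAR bZIP factors, kinases and ubiquitin ligases that act on PER and CRY, and others. All 20 were tested, and edgeR called 0 of them with all 12 libraries and 0 with the 10 unmarked ones, where 1 (Csnk1e) had an unadjusted p below 0.05. The 3 with the smallest p over all 12 libraries were Bhlhe40, Csnk1e and Btrc. Csnk1e, a kinase that marks PER proteins for decay, had a mean of 70.3 ± 5.52 CPM in unmarked HKII+/- libraries, against 63.6 ± 3.45 CPM in unmarked HKII+/+ libraries (± SD, n = 5 each). Its fitted log2 difference was 0.15 (SE 0.06), with an adjusted edgeR p of 0.9999, and 0.09 (SE 0.10) over all 12 libraries. Btrc, part of a ligase that acts on PER, had a mean of 28.2 ± 1.28 CPM in unmarked HKII+/- libraries, against 30.5 ± 1.65 CPM in unmarked HKII+/+ libraries (± SD, n = 5 each). Its log2 difference was -0.11 (SE 0.05), and -0.08 (SE 0.11) over all 12 libraries. Bhlhe40, a repressor that competes for E-boxes, had a mean of 64.8 ± 6.55 CPM in unmarked HKII+/- libraries, against 65.3 ± 6.98 CPM in unmarked HKII+/+ libraries (± SD, n = 5 each). Over all 12 libraries its mean was 84.9 ± 49.7 CPM in HKII+/-, against 68.8 ± 10.7 CPM in HKII+/+ (± SD, n = 6 each), a log2 difference of 0.30 (SE 0.28). The library labelled HKII+/- replicate 11 held 186 CPM of it.

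A list of 15 genes known as clock outputs and a list of 10 glucocorticoid response genes were read the same way, since glucocorticoids drive Per1 and follow the daily cycle. All were tested and edgeR called 0 of each, with and without the marked libraries. Wee1, a kinase that holds back mitosis and carries E-boxes, measured 21.5, 19.9, 24.4, 29.3 and 23.1 CPM in the unmarked HKII+/- hearts, against 15.2, 14.2, 17.1, 18.9 and 19.7 CPM in the unmarked HKII+/+ hearts. These groups did not overlap, as was so for 0.475% of the tested genes (67), and the exact two-sided permutation p was 0.0079, the smallest that 252 splits allow. Its log2 fold change was 0.48 (SE 0.12) with an adjusted edgeR p of 0.9999, and the marked libraries, at 38.6 CPM (the library labelled HKII+/- replicate 11) and 48.3 CPM (HKII+/+ replicate 13), lay above all others. Over all 12 libraries the groups overlapped, with a fitted log2 difference of 0.23 (SE 0.30) and an exact permutation p of 0.292. Cdkn1a, an inhibitor of the cell cycle and also among the outputs with the smallest p, had a log2 fold change of 0.40 (SE 0.54) over all 12 libraries and -0.07 (SE 0.26) over the unmarked ones. Among the glucocorticoid response genes Fkbp5, a chaperone of the steroid receptor, had a log2 fold change of 0.50 (SE 0.61) over all 12 libraries and -0.02 (SE 0.22) over the unmarked ones. The library labelled HKII+/- replicate 11 held 201 CPM of Fkbp5 and 148 CPM of Cdkn1a, the highest of all 12 libraries in both. Tsc22d3 had a log2 fold change of 0.19 (SE 0.24) over all 12 libraries and 0.20 (SE 0.19) over the unmarked ones, and Klf9 one of -0.16 (SE 0.21) over all 12 and -0.15 (SE 0.09) over the unmarked ones. None of these differences was called.

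In the 2 marked libraries several members departed from all others. Clock measured 6.80 CPM in the library labelled HKII+/- replicate 11 and 9.05 CPM in HKII+/+ replicate 13, against 42.3 to 65.6 CPM in the unmarked libraries. Nr1d2 measured 47.1 CPM in that HKII+/- library and 62.3 CPM in HKII+/+ replicate 13, against 134 to 174 CPM in the unmarked ones. Npas2 measured 1.44 CPM in the HKII+/- library and 1.25 CPM in HKII+/+ replicate 13, against 3.20 to 5.33 CPM. Dbp went the other way, with 226 CPM in the HKII+/- library and 171 CPM in HKII+/+ replicate 13, against 39.3 to 94.0 CPM. In these 4 genes both marked libraries lay outside the range of the other 10. On the mean log2 CPM the marked libraries differed from the unmarked ones by -2.78 for Clock, -1.61 for Npas2, -1.47 for Nr1d2 and 1.41 for Dbp. By total counts, without the TMM factors, the differences were -3.22 for Clock, -2.03 for Npas2, -1.91 for Nr1d2 and 0.96 for Dbp. The differences of Cry1, 0.40, and Per1, 0.34, were -0.04 and -0.10 by total counts, so their direction depends on the scaling, while that of Nr1d1, 0.91, was 0.47.

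The same contrast over 13472 tested genes moved with the GC content of the longest transcript, with a Spearman correlation across genes of 0.65, against -0.16 for transcript length. Genes are not independent replicates, and this is a description of 2 libraries. The median difference was -1.85 in the lowest of 10 equal bins of genes by GC content (median 39.8%) and 1.10 in the highest (median 59.7%). Clock, at 40.9% GC, and Nr1d2, at 41.8%, were the members of lowest GC content, and Dbp, at 61.6%, the highest. Npas2, at 52.3% GC, lay far below the genes of its GC content, whose median difference was 0.23. Of all these genes 3.48% had a lower difference than Clock. Thra, which overlaps Nr1d1, measured 186 CPM in the marked HKII+/- library and 154 CPM in the marked HKII+/+ library, against 71.7 to 99.6 CPM in the unmarked ones. Sphk2, which overlaps Dbp, measured 62.5 CPM in the marked HKII+/- library and 56.8 CPM in the marked HKII+/+ library, against 28.0 to 33.2 CPM in the unmarked ones, and both overlapping genes were chosen after their values were seen. The part of GC content, of overlapping genes and of the raised heart muscle markers in the members' values was not tested.

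**Figure D5:**
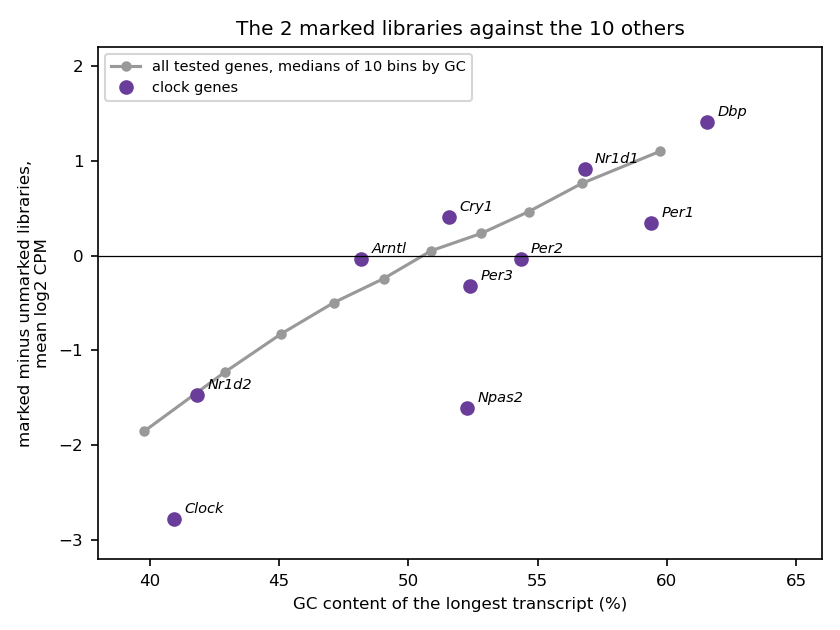
Mean log2 CPM of the 2 marked libraries minus that of the 10 unmarked libraries, against the GC content of the longest transcript in percent. Purple points are the 10 clock genes and the grey line joins the medians of all tested genes in 10 bins of GC content, which run from -1.85 to 1.10. Clock and Npas2 lie farthest below the line and Dbp above 0 at the far right.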

How the data were processed

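Poly(A) RNA of 12 heart libraries was read as single-end reads of 100 nt, per the labels' protocols. The authors deposited raw whole-number counts for each gene symbol, without normalisation. The submitters' processing notes name STAR 2.4.0, featureCounts 1.4.4 and the builds mm10 and GRCm38. Neither the strand setting nor the annotation release is given in the sources used here. Genotype came from the titles. Counts were tested with edgeR 4.0.16 (TMM, filterByExpr with a minimum count of 10, quasi-likelihood F-test, Benjamini-Hochberg over all genes tested), after a trial of the code on simulated counts. Alternatives used DESeq2 1.42.0, limma 3.58.1 voom with quality weights, other scalings, filters and left-out libraries. The DESeq2 fit without the marked libraries was added after seeing the data. Log2 CPM used a prior count of 2. Single values were compared by exact two-sided permutation of mean log2 CPM. Gene models and GC content came from GENCODE vM21 (GRCm38), promoters from RefSeq. GC content was known for 95.5% of tested genes. Replicates of a genotype differed by at least 7.03 times sampling noise (chi-square per degree of freedom). Named genes were the members, the 3 of each further list with the smallest p, the 5 highest and 5 lowest in r with Arntl and with Dbp, and Hk2. Of these, 1 gene is not reported here. Others (Ciart, Cry2, Thra, Sphk2 and further ranks) were chosen after their values were seen. The members and lists were chosen with earlier results of these data known.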

Additional observations from a re-analysis of the deposited data

Results flagged for a closer look

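In groups of 6 libraries, 6 single values stood apart from the rest of their genotype by Dixon's criterion at the 95% level, among 22 groups examined (10 members and the phase difference in each genotype). Chance alone flags about 1 in 20 independent groups. These groups share the same libraries, so the count cannot be set against that rate. All 6 belong to the 2 libraries marked by the submitters. The library labelled HKII+/- replicate 11 stood apart in Nr1d1 (377 CPM, high), Nr1d2 (47.1 CPM, low) and Dbp (226 CPM, high). HKII+/+ replicate 13 stood apart in Cry1 (21.9 CPM, high), Nr1d2 (62.3 CPM, low) and Dbp (171 CPM, high). Airway, fat and smooth muscle markers summed to 261, 1361 and 2902 CPM in the library labelled HKII+/- replicate 11, above every unmarked library, where they reached at most 1.76, 291 and 737 CPM, and to 0.721, 24.5 and 780 CPM in HKII+/+ replicate 13. Their part in the clock gene values was not tested. The 4 haemoglobin genes of the blood list are listed at 0 in every library.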

How the results depend on the processing

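No member was called under any of the 22 settings tried, which changed the scaling, the filter, the tool or the libraries, and 0 genes of the 3 further lists were called. No paired analysis was possible because the 2 genotypes share no replicate number. The log2 fold change stayed positive in all 22 settings for Cry1 (0.12 to 0.44, lowest adjusted p 0.588) and Per2 (0.21 to 0.54). Several uncalled fold changes turned direction, among them 3 that were not near 0 over all 12 libraries (Bhlhe40 0.30, Cdkn1a 0.40 and Fkbp5 0.50). Per1 was 0.041 by voom with quality weights, 0.0010 without both marked libraries and 0.0034 by DESeq2 without them. Nr1d1 was 0.0039 with median-of-ratios factors, 0.0035 with a minimum count of 50 and 0.0039 by DESeq2. By voom Nr1d2 was 0.036 and Dbp -0.11. Without both marked libraries, by edgeR and then DESeq2, Dbp was -0.13 and -0.12, Bhlhe40 -0.0089 and -0.0076, Cdkn1a -0.068 and -0.077 and Fkbp5 -0.017 and -0.022. The Per3 difference of mean log2 CPM was 0.11 without both. Leaving out each library in turn, fold changes that turned ran over these ranges: Arntl -0.30 to 0.069, Bhlhe40 -0.087 to 0.40, Cdkn1a -0.39 to 0.74, Clock -0.28 to 0.16, Dbp -0.38 to 0.33, Fkbp5 -0.50 to 0.99, Npas2 -0.22 to 0.11, Nr1d1 -0.39 to 0.11, Nr1d2 -0.20 to 0.11, Per1 -0.16 to 0.13, Per3 -0.055 to 0.10. Differences of mean log2 CPM ran likewise: Arntl -0.27 to 0.024, Clock -0.57 to 0.36, Dbp -0.36 to 0.15, Npas2 -0.32 to 0.21, Nr1d2 -0.31 to 0.18, Per1 -0.24 to 0.18, Per3 -0.075 to 0.10. The phase difference between genotypes ran from -0.34 to 0.085. The count of members with an exact permutation p below 0.05 was 2 without both marked libraries (2.88% of all genes), against 0 with all 12 (0.652% of all genes), and 0 to 1 leaving out single libraries. Correlated pairs numbered 11 by r and 0 by Spearman's rho over all 12 libraries, and 3 by r and 2 by rho without both marked ones. By r they numbered 1 to 13 leaving out single libraries, with 1 without HKII+/+ replicate 13 and 2 without the library labelled HKII+/- replicate 11. The causes were not tested. Low counts of Npas2 and Arntl and the number of libraries limit what can be seen.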

Other observations

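Of the 5 genes most opposed to Dbp over the 10 unmarked libraries, 2 encode heat shock chaperones. Hsph1 measured 199 CPM in HKII+/- replicate 12, the library with the lowest Dbp, against at most 116 CPM in the other 9. Hspa4l measured 88.5 CPM there, against at most 73.9 CPM in the other 9. Without that library r with Dbp was -0.73 for Hsph1 and -0.86 for Hspa4l over 9 libraries, and -0.90 for Snx16. These are descriptions of genes picked for their r, with no test.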
